A study of Rattus norvegicus with 20 samples.

Results

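The P.NP and NP rats compared here carried the same alcohol-nonpreferring alleles along one stretch of chromosome 4 and differed in the rest of their genome. P.NP rats are congenic: the 4q22-q34 segment of the inbred alcohol-nonpreferring (NP) strain was moved onto the background of the inbred alcohol-preferring (P) strain by repeated backcrossing. NP rats are the inbred strain that gave the segment, so both groups were homozygous for it by design, and the comparison P.NP minus NP reads the P background against the NP background. All rats were 4 weeks old, and no agent was given. The study used male rats only; the labels of the arrays do not give the sex.

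Each of 4 strains was represented by 5 femurs on Affymetrix rat whole-genome 3′ expression arrays, 1 array per femur, so 10 of the 20 arrays belong to this comparison. The other 10 were from P rats and from NP.P rats, the reciprocal congenic strain with the P segment on the NP background. P minus NP.P therefore asks for the same background difference with the P segment in both groups, and it shares no array with P.NP minus NP. The sample descriptions name the proximal femur, whereas the methods say femur. Each congenic strain is a single line, and RNA came from whole bone with its marrow, growth plate and adhering tissue.

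In bulk tissue of this kind, fewer cells of a type and less RNA per cell cannot be told apart. The marrow of a young rat femur makes red cells, platelets, granulocytes and lymphocytes. Osteoblasts lay down the mineralizing matrix, osteoclasts resorb it, and chondrocytes lengthen the bone at the growth plate. In a congenic strain the introgressed segment is exchanged while the background stays that of the recipient, so a pair of strains that share a segment differs across all other chromosomes. Alcohol preference was mapped to this stretch of chromosome 4 in P and NP rats, and bone traits were mapped there in other inbred strains.

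Signals were MAS5 values, an arbitrary linear unit that had been brought to a common trimmed mean across arrays. Median signals were 293.9 to 311.8 in P.NP femurs and 300.7 to 322.3 in NP femurs. Gapdh probe sets at the 3′ and 5′ ends of the transcript, a sign of RNA integrity, gave ratios of 1.074 to 1.098 in P.NP femurs and 1.032 to 1.126 in NP femurs. Bone was present in every array: the 17 tested markers of osteoblasts and bone matrix summed to 384623 to 428585 in P.NP femurs and 332335 to 436863 in NP femurs. NP replicate 2 stood apart from the other NP arrays. Its mean correlation with them was 0.959, against 0.968 to 0.972 for the other 4, its skeletal muscle markers were high and its cartilage and osteoclast markers were low. Where a list's count of calls moved by more than 1.5 times without that array, the count without it stands beside the list.

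Of 18625 probe sets tested, 780 (4.19%) were higher and 1004 (5.39%) were lower in P.NP than in NP femurs at a false discovery rate of 10% (limma, Benjamini-Hochberg adjustment over all tested probe sets). Together these were 1784 calls, 9.58% of the probe sets tested. An unadjusted p under 0.05 was found for 3834. The median log2 difference over all tested probe sets was 0.004. Most changes were small. The median called difference was 0.44 on the log2 scale among higher probe sets and -0.41 among lower ones, and 70 higher and 80 lower probe sets changed by at least 1. Without NP replicate 2 there were 993 higher and 1110 lower calls, and without P.NP replicate 4 there were 490 higher and 693 lower, 1183 in all.

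At one probe set per gene, the brightest, 459 genes were higher and 542 were lower among 10665 genes, 9.39% of them. That share is the comparison for each count of called list members below. In 268 of the higher and 328 of the lower genes the 5 P.NP signals did not overlap the 5 NP signals, and over all tested probe sets such separation was seen in 6.71%. Of the called genes, 270 had at least 1 more tested probe set, 362 in all. Of those 362, 253 lay on the same side as the called one and 74 were called on that side, while 13 were called on the other side. So the direction given for a gene is that of the probe set read, and genes whose probe sets opposed each other are named as such.

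Calls were spread over the genome. The share of tested probe sets called lay between 6.22% on chromosome 11 and 12.4% on chromosome 16 among the autosomes and X. Inside the shared segment, taken from Arf5 to Ppp4r2 (chromosome 4, positions 58003919 to 135051844 in the rat assembly GRCr8), 41 of 384 tested probe sets were called, 10.7%. Both genes are among those the study reported as differing in the region. The study itself bounded the segment by flanking markers, so the limits used here are approximate. On the rest of chromosome 4 the share was 12.1%, and on all other placed chromosomes 9.35%. The segment's share was thus near that of the chromosomes that differ by design. Of its 41 calls, 16 were higher and 25 lower, and the count was 23 without NP replicate 3, 22 without NP replicate 4, 27 without P.NP replicate 2 and 22 without P.NP replicate 4.

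**Figure D1:**
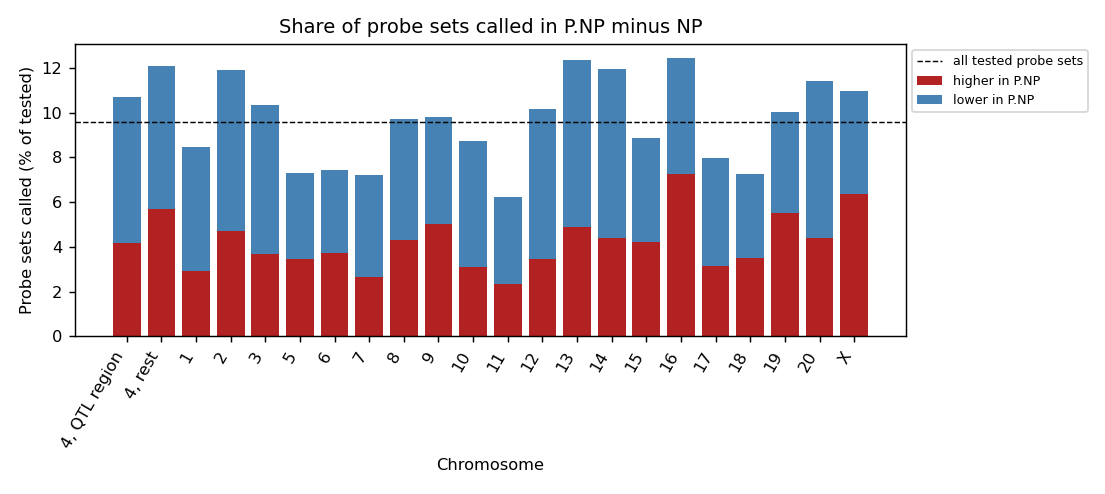
Share of tested probe sets called in P.NP minus NP, in percent, for the shared segment of chromosome 4 (QTL region, for quantitative trait locus), the rest of that chromosome and each other chromosome, split into probe sets higher and lower in P.NP. The dashed line is the share over all tested probe sets, 9.58%, and the shared segment stands at 10.7%.

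Lcn2 and Fam111a had the smallest adjusted p of all genes read, one lower and one higher in P.NP femurs. Lcn2, which encodes lipocalin 2, an iron-siderophore binding protein of neutrophil granules and acute inflammation, had signals of 822, 756, 974, 862 and 863 in P.NP femurs, against 13701, 13848, 15157, 13472 and 12423 in NP femurs. The lowest NP array was far above the highest P.NP array (log2 difference -4.01 ± 0.09 (SE), adjusted p = 4.44e-16). Fam111a, a serine protease gene whose human form is mutated in skeletal dysplasias, went the other way, with 34489, 31369, 32079.7, 31558 and 30518 in P.NP femurs, against 4350.4, 3678, 4544, 4179 and 4175 in NP femurs. No array overlapped between the strains (log2 difference 2.94 ± 0.09 (SE), adjusted p = 4.62e-14).

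Setd1b, a histone H3 lysine 4 methyltransferase subunit, gave 229, 205, 257, 294 and 232 in P.NP femurs, against 2035, 1756, 2179.6, 1836 and 2089.8 in NP femurs (log2 difference -3.03 ± 0.13 (SE), adjusted p = 4.68e-12). Sgcb, the beta-sarcoglycan of the dystrophin complex, gave 126, 314, 320.4, 138 and 145 in P.NP femurs, against 2496, 3206, 1985, 1836 and 1685 in NP femurs (log2 difference -3.51 ± 0.27 (SE), adjusted p = 5.11e-08). Both were lower in every P.NP femur than in any NP femur, and the P.NP signals of Sgcb lay near the level of 169.7 used to filter dim probe sets. A second Sgcb probe set was also lower (-0.76 ± 0.13, adjusted p = 0.000736), and the other one had a log2 difference of 0.11 ± 0.17 (adjusted p = 0.763).

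Other strongly lower genes had varied roles. Dck, the deoxycytidine kinase that salvages nucleosides for DNA synthesis, had 1263, 1093, 1156, 1101 and 1274 in P.NP femurs, against 2996, 3049, 3281, 2783 and 2704 in NP femurs (log2 difference -1.33 ± 0.08 (SE), adjusted p = 2.72e-09), and its other 2 probe sets were lower as well, by -2.45 and -0.36 on the log2 scale. Uqcc6, an assembly factor of respiratory complex III, gave 707 ± 42.5 in P.NP femurs and 2000.3 ± 183 in NP femurs (SD, n = 5 each) (log2 difference -1.50 ± 0.09 (SE), adjusted p = 1.23e-09). Snrpf, a core protein of spliceosomal snRNPs, gave 5733 ± 426 in P.NP femurs and 11399 ± 791 in NP femurs (SD, n = 5 each) (log2 difference -0.99 ± 0.07 (SE), adjusted p = 9.76e-09). All 3 separated the strains completely. Slc39a7, a zinc transporter of the endoplasmic reticulum, was lower by -1.24 ± 0.09, Nrtn, the neurotrophic factor neurturin, by -1.37 ± 0.13, and Atg4b, an autophagy protease, by -1.02 ± 0.10 (adjusted p = 5.11e-08, 1.08e-06 and 1.01e-06). Cdca3, a trigger of mitotic entry, was lower by -0.71 ± 0.06 and C3h15orf48 by -1.21 ± 0.10 (adjusted p = 2.97e-07 and 1.11e-07). Snx27, a sorting nexin of endosome recycling, was lower by -0.77 ± 0.08 at the probe set read, while its others differed by 0.02, 0.12 and -0.37.

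Fam111a was followed on the higher side by genes of several functions. Rexo4, an exonuclease of the nucleolus, had 1674, 1887, 2000.3, 1898 and 1774 in P.NP femurs, against 541, 684, 586, 704 and 721 in NP femurs (log2 difference 1.52 ± 0.14 (SE), adjusted p = 4.73e-07). Atp10d, a phospholipid flippase, had 980.3, 864, 1059.8, 1011 and 1023 in P.NP femurs, against 396, 291, 424, 392 and 243 in NP femurs (log2 difference 1.53 ± 0.14 (SE), adjusted p = 9.28e-07). Arpc4, a subunit of the actin-branching Arp2/3 complex, had 3054, 3129, 3388, 3509.6 and 3658 in P.NP femurs, against 1136, 1041, 1586, 1551 and 1323 in NP femurs (log2 difference 1.35 ± 0.14 (SE), adjusted p = 2.93e-06). In each the lowest P.NP femur was well above the highest NP femur. Pdgfrl, a platelet-derived growth factor receptor-like gene, was about 2.03-fold higher, at 5144 ± 324 in P.NP femurs and 2532 ± 168 in NP femurs (SD, n = 5 each) (log2 difference 1.02 ± 0.08 (SE), adjusted p = 3.56e-08). Tmco3, a cation antiporter family member, was higher at both of its probe sets, by 1.28 ± 0.10 and 1.26 ± 0.23 (adjusted p = 1.11e-07 and 0.00191).

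Further genes with complete separation and higher P.NP signals were Impa2, an inositol monophosphatase (1.03 ± 0.08), Mga, a MAX partner in transcription (1.09 ± 0.11), Nherf1, a scaffold of membrane transporters (0.82 ± 0.08), Snx14, a sorting nexin (1.26 ± 0.13), and Rad1, part of the DNA damage checkpoint clamp (1.40 ± 0.16). A second Mga probe set differed by 0.16 and was not called (adjusted p = 0.683). Chmp1b, an ESCRT-III subunit, was higher at the probe set read (0.70 ± 0.07, adjusted p = 3.45e-06) but lower at its other 2, by -0.97 ± 0.11 and -0.64 ± 0.13 (adjusted p = 1.4e-05 and 0.00511). Its direction is therefore unsettled. Prcp, Cand2 and Rsu1 had log2 differences of 1.98 ± 0.49, 1.74 ± 0.28 and 1.51 ± 0.25 with wider spread. Cwc25, Vof16, Phf1 and Stfa3 were lower by -2.78 ± 0.41, -2.28 ± 0.40, -1.95 ± 0.45 and -1.74 ± 0.35, and their mean P.NP signals of 113, 109, 149.8 and 111 lay under the filter level.

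**Figure D2:**
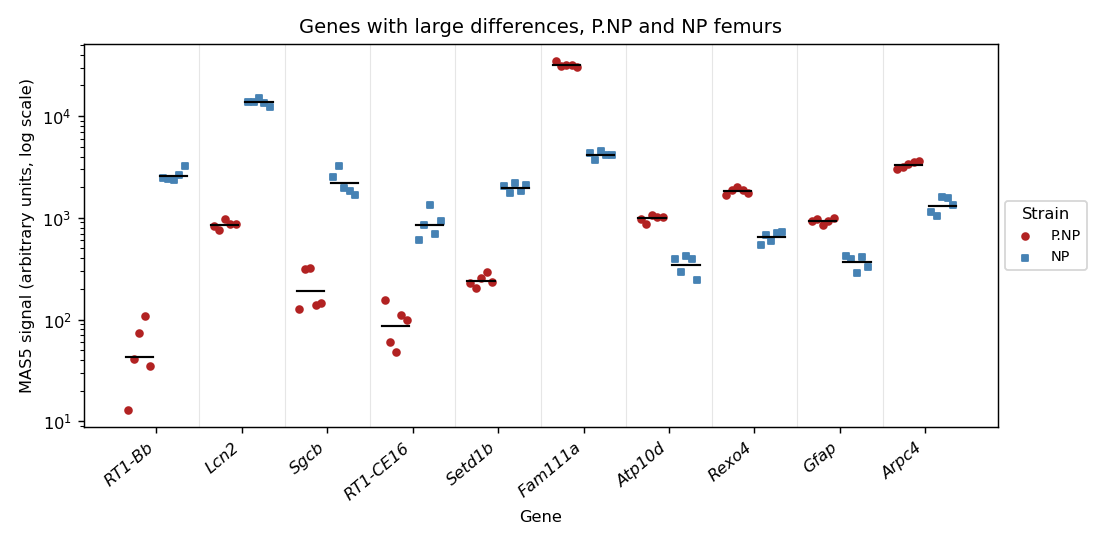
MAS5 signals on a log axis of 10 genes with large differences in 5 P.NP femurs (circles) and 5 NP femurs (squares), with the geometric mean of each strain as a line. At the probe set read, RT1-Bb, Lcn2, Sgcb, RT1-CE16 and Setd1b were lower and Fam111a, Atp10d, Rexo4, Gfap and Arpc4 higher in every P.NP femur than in any NP femur. All P.NP signals of RT1-Bb and RT1-CE16 lay under the filter level of 169.7. A second RT1-Bb probe set, not shown, was higher in P.NP femurs (log2 difference 2.88 ± 0.44).

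Genes of the major histocompatibility complex (RT1 in the rat, on chromosome 20) moved in both directions. The class I molecules that these genes encode present peptides to cytotoxic T cells, and Tap2 and Psmb8 help to make and carry the peptides. Of 16 class I and antigen processing genes tested, 3 were higher and 3 lower (37.5% called, beside 9.39% of all genes), with a median of -0.13. RT1-CE16 had 157, 59.7, 48.4, 109.8 and 98.7 in P.NP femurs, against 604, 842, 1335, 688 and 929 in NP femurs (log2 difference -3.29 ± 0.32 (SE), adjusted p = 1.51e-06). RT1-T24-4 had 5016, 4517, 5378, 5661 and 5101 in P.NP femurs, against 2669, 2328, 2875, 2488 and 2587 in NP femurs (log2 difference 0.99 ± 0.10 (SE), adjusted p = 2.93e-06). The first was lower and the second higher in every P.NP femur. All 5 P.NP signals of RT1-CE16 lay under the filter level of 169.7, so the size of its difference is uncertain. RT1-CE12 was also higher (0.98 ± 0.11) and RT1-CE10 lower (-1.37 ± 0.19). Tap2, a chain of the peptide transporter, was lower at 518 ± 86.5 in P.NP femurs and 991 ± 123 in NP femurs (SD, n = 5 each) (log2 difference -0.94 ± 0.13 (SE), adjusted p = 9.14e-05), and the immunoproteasome subunit Psmb8 was higher (0.63 ± 0.09, adjusted p = 0.000104). Class I genes are near copies of each other, so a probe set may read more than 1 of them.

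Of 8 class II genes, whose products present peptides to helper T cells, 4 were lower and none higher, with a median of -0.32. RT1-Bb, the beta chain of the B molecule, had 12.9, 41.2, 74.4, 109 and 34.7 in P.NP femurs, against 2439.6, 2419, 2376, 2611 and 3203 in NP femurs (log2 difference -5.91 ± 0.49 (SE), adjusted p = 1.84e-07). All 5 P.NP signals of RT1-Bb at this probe set lay under the filter level of 169.7, so the size of that difference is uncertain. The second RT1-Bb probe set was higher instead, with means of 717 in P.NP femurs and 99.3 in NP femurs (2.88 ± 0.44, adjusted p = 0.000366). RT1-Ba, the alpha chain, behaved alike: the probe set read was lower, at 548, 662, 727, 691 and 736 in P.NP femurs, against 1274, 1078, 1224, 1437 and 1391 in NP femurs (log2 difference -0.93 ± 0.15 (SE), adjusted p = 0.000589), and another was higher, with means of 1489 in P.NP femurs and 69.0 in NP femurs (4.71 ± 0.55, adjusted p = 1.43e-05). For both chains the direction therefore depends on the probe set. RT1-Da, the alpha chain of the D molecule, had a single probe set and was lower, at 3752, 3456, 3017, 3281 and 3383 in P.NP femurs, against 5547, 4316, 5556, 5821 and 6092 in NP femurs (log2 difference -0.69 ± 0.11 (SE), adjusted p = 0.000519). RT1-DMb, part of the peptide editor, was lower by -0.53 ± 0.11 (adjusted p = 0.00536).

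Eosinophil granule genes were lower in P.NP femurs. Prg2 encodes the eosinophil major basic protein, and its signals were 8388, 10162, 10228, 6501 and 11241 in P.NP femurs, against 22227, 31460.3, 31299, 28389 and 25761 in NP femurs. Epx, eosinophil peroxidase, had 2710.1, 2995, 3547, 2452 and 3432 in P.NP femurs, against 8505, 9192, 10898, 9059 and 8253 in NP femurs. The strains did not overlap for either gene (log2 difference -1.59 ± 0.17 (SE), adjusted p = 3.92e-06 for Prg2, and log2 difference -1.61 ± 0.17 (SE), adjusted p = 2.93e-06 for Epx). In the same list of 14 tested granulocyte genes, 5 were lower and none higher, with a median of -0.35 beside 0.008 over all genes. The other called members were Lcn2, Camp, the cathelicidin of neutrophil granules (-0.42 ± 0.11, adjusted p = 0.0291), and Csf3r, the receptor for the neutrophil growth factor (-0.41 ± 0.11, adjusted p = 0.0389). The call of Csf3r was lost without P.NP replicate 4. Per array, the mean centred log2 level of the list ran from -0.43 to -0.02 in P.NP femurs and from 0.31 to 0.52 in NP femurs. Lcn2, Epx and Prg2 had the largest differences in it and weigh most in that level. The list had 11 negative and 3 positive differences, and 9 members were not called. Among those 9 were S100a8 (-0.08), S100a9 (-0.11) and Mmp9 (0.26).

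Platelet genes shifted in the same direction. Ppbp, pro-platelet basic protein, a chemokine of platelet granules, had 3011, 2822, 2576, 2610.0 and 2437 in P.NP femurs, against 6614, 7885, 7306, 7427 and 6869.5 in NP femurs (log2 difference -1.43 ± 0.12 (SE), adjusted p = 3.29e-07). Treml1, a receptor of platelet granules, had 2268, 1652, 1871, 1748 and 1787 in P.NP femurs, against 3293, 3362, 3148, 3272 and 3754 in NP femurs (log2 difference -0.86 ± 0.11 (SE), adjusted p = 3.69e-05). Every P.NP femur was below every NP femur for both. Pf4, platelet factor 4, was lower by -0.42 ± 0.08, Vwf, von Willebrand factor, by -0.71 ± 0.11, and Gp9, a subunit of the von Willebrand receptor that lies in the shared segment, by -0.36 ± 0.11 (adjusted p = 0.00348, 0.000282 and 0.0659). These were 5 of 12 tested megakaryocyte and platelet genes, none was higher, and the median was -0.35. The list had 10 negative and 2 positive differences, and 7 members were not called. The positive ones were the integrin chains Itgb3 (0.23 ± 0.08) and Itga2b (0.22 ± 0.12) (adjusted p = 0.122 and 0.301). Without P.NP replicate 2, 1 gene of the list was called higher. The call of Gp9 was lost in 6 of the 10 fits that each left out 1 array.

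**Figure D3:**
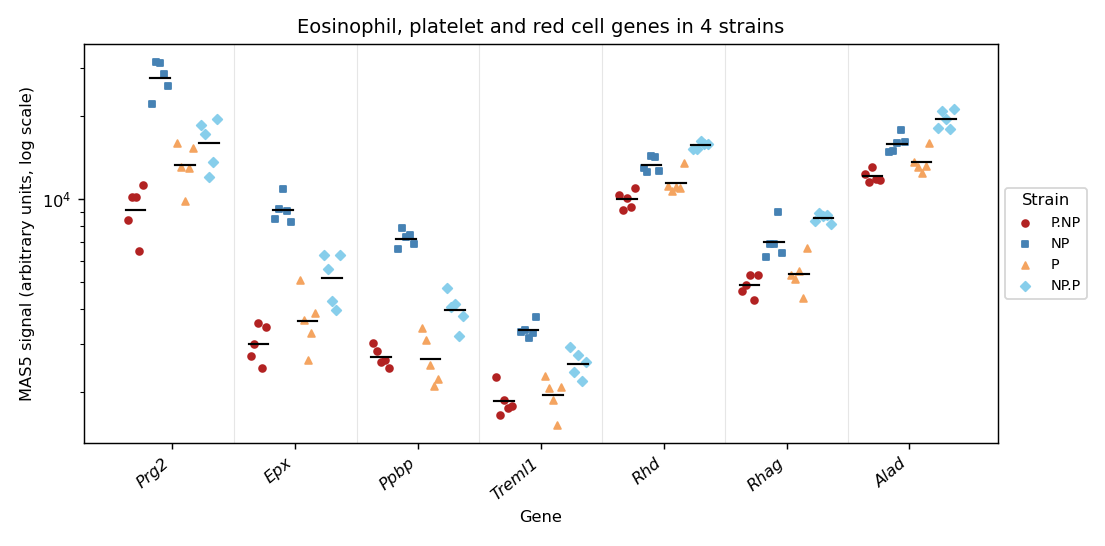
MAS5 signals on a log axis of eosinophil (Prg2, Epx), platelet (Ppbp, Treml1) and red cell (Rhd, Rhag, Alad) genes in the 4 strains, 5 femurs each, with geometric means as lines. The arithmetic mean of Prg2 was 9304 in P.NP and 27827 in NP femurs, and 13469.6 in P and 16256 in NP.P femurs.

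Red cell genes were lower by smaller steps. Of 25 tested erythroid genes, 10 were lower and none higher, with a median of -0.21. Rhd, the D blood group antigen of the red cell membrane, had 10383, 9146, 10147, 9362 and 11038 in P.NP femurs, against 13016, 12578, 14342, 14294 and 12721 in NP femurs (log2 difference -0.42 ± 0.07 (SE), adjusted p = 0.00117). Rhag, the ammonia channel that carries it, had 4657, 4886, 5313, 4303 and 5314 in P.NP femurs, against 6156, 6876, 6886, 9021 and 6414 in NP femurs (log2 difference -0.52 ± 0.11 (SE), adjusted p = 0.00505). Alad, the second enzyme of heme synthesis, had 12386, 11589, 13056, 11833 and 11722 in P.NP femurs, against 14861, 14969, 16062, 17855 and 16149.8 in NP femurs (log2 difference -0.40 ± 0.08 (SE), adjusted p = 0.00334). None of the 3 overlapped between strains. Kel, the Kell blood group protein, lies in the shared segment and was lower at both probe sets (-0.29 ± 0.07 and -0.48 ± 0.11, adjusted p = 0.0182 and 0.0115). Gata1, the master factor of red cell and platelet formation, and Klf1, which activates adult globin genes, were among the 10 and are named here after their values were seen (-0.29 ± 0.08 and -0.37 ± 0.10, adjusted p = 0.0384 and 0.0395). Klf1 lost its call without NP replicate 3, NP replicate 4 or P.NP replicate 4. The number called was 5 without NP replicate 3, NP replicate 4 or P.NP replicate 4 and 6 without P.NP replicate 2. None of 4 tested globin genes was called, and their median was -0.20, with Hbe1 at -0.49 ± 0.24 and Hba-a3 at -0.11 ± 0.10 (adjusted p = 0.25 and 0.539).

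Erythroid genes are known to be switched on by the transcription factor GATA1, which binds GATAA or GATAG preceded by A or T, searched here on both strands. RefSeq promoters of the reference strain, 250 bases before to 50 after the start, were matched for 8 of the 10 lower erythroid genes. In 6 of the 8 at least 1 match was present, beside 30.3% of all 33469 promoters. Erythroid genes that were not called were not searched, so the count cannot set the lower genes apart from other erythroid genes. A part of GATA1 in their levels was not tested. The same search found none in the promoters of 3 platelet and 4 granulocyte genes that were lower and matched. Promoters of 3 of the 6, genes of red cell membrane proteins described above, are printed next with the match in capitals (GRCr8, each 5′ to 3′ on the gene's strand). They are those of Rhd (chr5:152370950-152371249, plus strand), Rhag (chr9:27594341-27594640, minus strand) and Kel (chr4:71551724-71552023, minus strand).
Rhd: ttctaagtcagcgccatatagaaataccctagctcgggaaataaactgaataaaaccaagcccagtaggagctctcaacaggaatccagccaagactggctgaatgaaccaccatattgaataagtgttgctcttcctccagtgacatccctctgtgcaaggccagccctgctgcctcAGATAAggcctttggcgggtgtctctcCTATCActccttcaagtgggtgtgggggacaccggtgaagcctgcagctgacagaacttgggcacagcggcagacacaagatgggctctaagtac
Rhag: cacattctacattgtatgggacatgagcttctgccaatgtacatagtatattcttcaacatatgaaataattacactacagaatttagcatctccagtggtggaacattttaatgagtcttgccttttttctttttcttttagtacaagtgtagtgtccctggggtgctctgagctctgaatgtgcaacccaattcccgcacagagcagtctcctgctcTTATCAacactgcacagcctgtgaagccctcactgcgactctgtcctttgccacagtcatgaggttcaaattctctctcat
Kel: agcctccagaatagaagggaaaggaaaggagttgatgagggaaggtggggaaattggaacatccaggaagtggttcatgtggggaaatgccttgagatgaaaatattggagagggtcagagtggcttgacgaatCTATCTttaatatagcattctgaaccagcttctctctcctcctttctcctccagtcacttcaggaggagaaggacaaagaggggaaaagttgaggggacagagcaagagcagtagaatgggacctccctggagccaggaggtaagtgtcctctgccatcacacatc
A match of this kind is a description of the letters and not a site. The matches began 72 and 45 bases before the start in Rhd, 31 before it in Rhag and 116 before it in Kel.

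The share of genes called differed among the lymphocyte and macrophage lists, beside 9.39% of all genes read. None of 10 tested B lymphoid genes was called, and their median was -0.02, with Cd22, a B cell receptor brake, at -0.38 ± 0.18 and Cd24 at -0.20 ± 0.13. Of 9 T and NK genes 3 were called (33.3%), and the lower calls numbered 2, or 1 without NP replicate 2, NP replicate 3, P.NP replicate 3, P.NP replicate 4 or P.NP replicate 5. Cd3g, a chain of the T cell receptor complex, was higher in every P.NP femur, at 2709 ± 210.4 in P.NP femurs and 1317 ± 176 in NP femurs (SD, n = 5 each) (log2 difference 1.05 ± 0.13 (SE), adjusted p = 1.89e-05). Nkg7, a granule protein of cytotoxic cells, was lower (-0.63 ± 0.13, adjusted p = 0.00444), and so was Il2rb, the interleukin 2 receptor beta chain (-0.74 ± 0.24, adjusted p = 0.0795, lost in 6 of the 10 fits without 1 array). Of 15 macrophage genes 2 were called (13.3%), and without NP replicate 1 the lower calls numbered 4. The called ones, C1qc and C1qa, chains of the first complement component, were lower by -0.33 ± 0.08 and -0.28 ± 0.09 (adjusted p = 0.016 and 0.0918), the second lost in 7 of those fits. Cybb, the catalytic chain of the phagocyte oxidase, which is not in that list, was lower at 4177 ± 670.2 in P.NP femurs and 7048 ± 978 in NP femurs (SD, n = 5 each) (log2 difference -0.76 ± 0.13 (SE), adjusted p = 0.00092).

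Complement genes moved in both directions. Of 13 tested, 2 were higher and 5 lower (53.8% called, beside 9.39% of all genes), with a median of -0.21. C3, the component on which the cascade converges, had 2297, 1871, 2773, 2108 and 2341 in P.NP femurs, against 3811, 4117, 4508, 4025 and 4033 in NP femurs (log2 difference -0.86 ± 0.11 (SE), adjusted p = 6.66e-05). C1r, the protease that starts the classical cascade, had 1756, 2226, 1974, 2224 and 1945 in P.NP femurs, against 1278, 1681, 1181, 1404 and 1015 in NP femurs (log2 difference 0.64 ± 0.11 (SE), adjusted p = 0.000767). C3 was lower and C1r higher in every P.NP femur. C1s, its partner protease, was also higher (0.33 ± 0.11, adjusted p = 0.0918, lost in 8 of the 10 fits without 1 array). Cd55, a brake on the cascade, was lower (-0.37 ± 0.07, adjusted p = 0.00336), as was Cfd, which is made by adipocytes (-0.34 ± 0.11, adjusted p = 0.0671). The lower calls numbered 3 without NP replicate 4, NP replicate 5, P.NP replicate 2, P.NP replicate 3 or P.NP replicate 4. Of 16 interferon response genes, Irf7 (-0.55 ± 0.12) and Rsad2 (-0.40 ± 0.09) were lower and none was higher, with a median of -0.05.

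**Figure D4:**
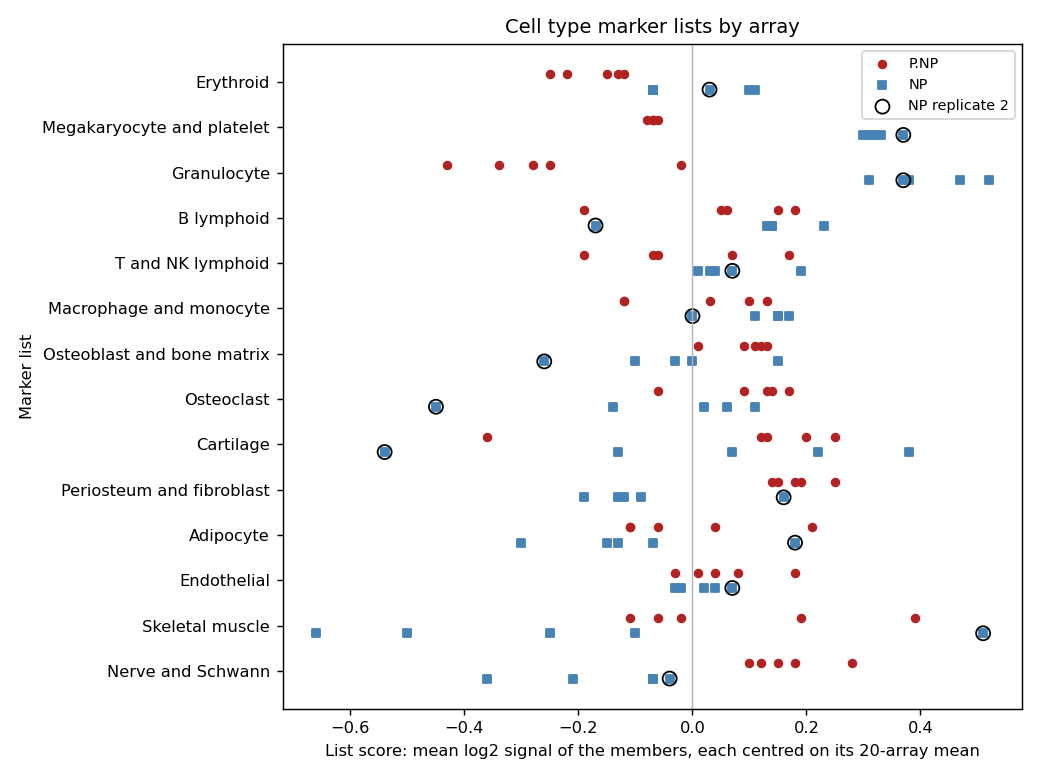
Mean log2 level of each cell type marker list per array, every gene centred on its mean over 20 arrays, for 5 P.NP femurs (circles) and 5 NP femurs (squares), NP replicate 2 ringed. Erythroid, megakaryocyte, granulocyte, and nerve and Schwann cell scores did not overlap between the strains. Muscle, cartilage and osteoclast scores of NP replicate 2 lay at one end of the NP range. The granulocyte score holds Lcn2, Epx and Prg2, whose differences were the largest of that list.

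Some fibrous matrix genes were higher in P.NP femurs. Of 20 periosteum and fibroblast genes, 7 were higher and none lower, with a median of 0.16. The list had 18 positive and 2 negative differences, and 13 members were not called. Among those 13 were Dcn (-0.12), Col3a1 (0.05) and Lum (0.07). Fbn1, fibrillin 1 of elastic microfibrils, had 6755, 7659.6, 7713, 7986 and 8156 in P.NP femurs, against 6007, 6027, 4980.5, 4794 and 4957 in NP femurs (log2 difference 0.52 ± 0.09 (SE), adjusted p = 0.000776). Postn, periostin, a matrix protein of the periosteum, had 26716, 24583, 23082, 26176 and 21305 in P.NP femurs, against 17956, 20494, 16149, 15639 and 18571 in NP femurs (log2 difference 0.46 ± 0.08 (SE), adjusted p = 0.00168). Neither gene overlapped between the strains at the probe set read, and a second Fbn1 probe set differed by 0.17 (adjusted p = 0.425). Pi16, a marker of fibroblast progenitors, was higher by 1.17 ± 0.28 and Col6a3, a chain of microfibrillar collagen VI, by 0.28 ± 0.06 (adjusted p = 0.0159 and 0.0102). The list score ran from 0.14 to 0.25 in P.NP femurs and from -0.19 to 0.16 in NP femurs, where the 0.16 was NP replicate 2. Without that array 9 genes were called.

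Some collagen and growth factor genes were higher as well. Of 29 collagen genes, 4 were higher and none lower (13.8% called, beside 9.39% of all genes). In that list 25 had positive differences and the median was 0.18. Col16a1, a fibril-associated collagen, had 6197, 5643, 5530.1, 6616 and 6324 in P.NP femurs, against 4651, 4369.9, 4534, 4274 and 4832 in NP femurs (log2 difference 0.42 ± 0.07 (SE), adjusted p = 0.000463). Its strains did not overlap. The other called collagens were Col6a3, Col5a1 (0.27 ± 0.08, adjusted p = 0.052, lost without NP replicate 4 or P.NP replicate 4) and Col4a2 (0.28 ± 0.09, adjusted p = 0.0879, lost in 8 of the 10 fits without 1 array). The count was 7 without NP replicate 2 and 2 without NP replicate 4 or P.NP replicate 4.

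In the BMP and TGF-beta list, whose ligands drive bone formation and matrix synthesis, 5 of 34 genes were higher and none lower, with a median of 0.17. The calls were 14.7% of the list, beside 9.39% of all genes read. Tgfb2, a ligand, had 1506, 1321, 1235, 1335 and 1288 in P.NP femurs, against 924, 1040.2, 1071, 775 and 940.2 in NP femurs (log2 difference 0.50 ± 0.09 (SE), adjusted p = 0.00108). Tgfbr1, the type I receptor, had 5203, 5233, 6609.9, 6354 and 5313 in P.NP femurs, against 4706, 3210.2, 4058, 4164 and 4456 in NP femurs (log2 difference 0.48 ± 0.11 (SE), adjusted p = 0.011). Each P.NP femur exceeded each NP femur for both. Inhba, the activin A chain, was higher by 0.47 ± 0.13, Smad4, the shared signal mediator, by 0.31 ± 0.08 and Smad3 by 0.39 ± 0.13 (adjusted p = 0.0343, 0.0222 and 0.0778). Second probe sets of Smad4 and Tgfb2 had differences of -0.31 and 0.11 and were not called (adjusted p = 0.124 and 0.817). The call of Smad3 was lost in 6 of the 10 fits without 1 array.

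The share of bone cell genes called was 11.8% for osteoblast and bone matrix, 8.33% for osteoclast and 5.56% for cartilage genes, near or under the 9.39% of all genes read. Of 17 osteoblast and bone matrix genes, Phex, the phosphate-regulating endopeptidase, and Alpl, alkaline phosphatase, were higher, by 0.56 ± 0.19 and 0.35 ± 0.12 (adjusted p = 0.088 and 0.0896). Each call was lost in 8 of the 10 fits without 1 array, both of them without NP replicate 2, and the list median was 0.19 with all arrays and 0.08 without NP replicate 2. Of 12 osteoclast genes 1 was called: Car2, a carbonic anhydrase that red cells also make, was lower (-0.18 ± 0.06, adjusted p = 0.0917, lost in 7 of those fits, NP replicate 2 among them). Of 18 cartilage genes 1 was called, Cytl1, a secreted chondrocyte factor (0.70 ± 0.20, adjusted p = 0.0412, lost without NP replicate 3). In the Wnt list of 18 genes, Sfrp4, a secreted Wnt antagonist, was higher by 0.31 ± 0.10 (adjusted p = 0.0805, lost in 6 of those fits).

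None of 23 tested skeletal muscle genes was called, although 21 had positive differences and the median was 0.31. Ttn, titin, the giant protein of the sarcomere, had 23149, 28589.9, 28985, 22117 and 23873 in P.NP femurs, against 19032, 28769, 17706, 16490.4 and 12451 in NP femurs (log2 difference 0.47 ± 0.19 (SE), adjusted p = 0.154), and NP replicate 2 was brighter than 4 of the 5 P.NP femurs. Myh1, a fast muscle myosin, had a difference of 0.32 ± 0.13 (adjusted p = 0.168) at the probe set read, while another of its probe sets was lower (-0.60 ± 0.11, adjusted p = 0.00202), with means of 1972 in P.NP femurs and 2986 in NP femurs. Summed muscle signals were 631395 to 828049 in P.NP femurs and 501902 to 919274 in NP femurs. Replicate 2 had the highest muscle score of its strain in P.NP (0.39), NP (0.51) and P (0.46) femurs, but not in NP.P femurs (-0.03). Without NP replicate 2, 10 muscle genes were called higher and the median was 0.42. In a fit added once the values were known, which held the arrays' muscle scores as a covariate, 1350 probe sets were higher and 1032 lower over the genome, so that 56.7% of calls were higher, against 43.7% without it. The part of muscle in the matrix results was not tested further.

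Of 16 adipocyte genes, Plin4, a lipid droplet protein, was higher (0.61 ± 0.20) and Cfd and Cd36, a fatty acid carrier, were lower (-0.22 ± 0.07 for Cd36), each with an adjusted p above 0.06. Their calls were lost in 7, 5 and 8 of the 10 fits without 1 array. Without NP replicate 2, 3 adipocyte genes were higher and 1 lower. In the endothelial list of 14 genes 1 was called, Vwf, which platelets share, and without NP replicate 2 there were 2 higher and 2 lower. Of 7 nerve and Schwann cell genes 2 were higher. Gfap, the glial filament protein, had 925, 970.4, 850.3, 937 and 1003 in P.NP femurs, against 417, 397, 285, 413 and 332 in NP femurs (log2 difference 1.36 ± 0.13 (SE), adjusted p = 7.55e-07), with no overlap between the strains. Cnp, a myelin enzyme, was higher by 0.23 ± 0.07 (adjusted p = 0.0723, lost in 5 of those fits).

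Among enzymes of glutathione, the main thiol antioxidant, and its transferases, 4 of 29 genes were higher and 3 lower, with a median of 0.04. The calls were 24.1% of the list, beside 9.39% of all genes. Gstt3, a theta class transferase, had 696, 765, 720.2, 778 and 621 in P.NP femurs, against 284, 355, 269, 271 and 273 in NP femurs (log2 difference 1.31 ± 0.12 (SE), adjusted p = 4.16e-07). Gclc, the catalytic subunit of the rate-limiting enzyme of glutathione synthesis, had 3822, 3909, 3713, 3777 and 3978 in P.NP femurs, against 2502, 2479, 2589, 2749.7 and 2733 in NP femurs (log2 difference 0.56 ± 0.06 (SE), adjusted p = 1.26e-05). Neither overlapped between the strains at the probe set read, and a second Gclc probe set differed by 0.2 (adjusted p = 0.255). Mgst1, a microsomal transferase, and Gsta4, which clears lipid peroxidation products, were lower by -0.39 ± 0.07 and -0.34 ± 0.08 (adjusted p = 0.00244 and 0.00957). Gclm, the modifier subunit that pairs with Gclc, was lower by -0.27 ± 0.07, opposite to its partner. Chac1 and Chac2, which break glutathione down, were higher by 0.53 ± 0.15 and 0.28 ± 0.09 (adjusted p = 0.0222 for Gclm, 0.0481 for Chac1 and 0.0657 for Chac2). The calls of Chac1 and Chac2 were lost in 4 and 6 of the 10 fits that each left out 1 array. The number of higher genes was 2 without NP replicate 4, NP replicate 5 or P.NP replicate 4.

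The P and NP lines were bred for high and for low alcohol preference. The list of 25 alcohol and aldehyde enzymes held 2 calls, 8.0% of it and under the 9.39% of all genes. Aldh2, the mitochondrial aldehyde dehydrogenase, gave 3975, 3800.3, 4141, 3687 and 3823 in P.NP femurs, against 4571, 4359, 4866, 4723 and 4456 in NP femurs (log2 difference -0.24 ± 0.05 (SE), adjusted p = 0.00896). Cat, catalase, gave 9312, 9853, 10920.4, 9868 and 10322 in P.NP femurs, against 8230.3, 8831, 7949, 8204 and 8339 in NP femurs (log2 difference 0.27 ± 0.06 (SE), adjusted p = 0.0146). Both differences were complete between the strains but under 0.3 on the log2 scale. The median of the list was 0.05, and 2 genes were lower without NP replicate 2 or without P.NP replicate 3. Pgk1, a phosphoglycerate kinase, was the 1 called gene of 25 hypoxia and glycolysis genes with all arrays, at 36051, 40739.8, 32527, 30661 and 27952 in P.NP femurs, against 15505, 23932, 17064, 15355 and 14011 in NP femurs (log2 difference 0.98 ± 0.13 (SE), adjusted p = 6.77e-05), and its second probe set differed by 0.09. Without NP replicate 2, 4 genes of that list were higher, and 2 were without NP replicate 4.

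Growth, clock and stress lists gave scattered calls. Igf1, the growth factor that carries growth hormone action to bone, was lower at 8734, 8661, 7675, 8736 and 8514 in P.NP femurs, against 10547, 10338, 11126, 9747 and 11379 in NP femurs (log2 difference -0.33 ± 0.08 (SE), adjusted p = 0.0223). Igfbp4, which binds it, was lower too (-0.43 ± 0.10, adjusted p = 0.0154), and the other 14 of 16 genes of the axis were not called. Other probe sets of Igf1 differed by -0.11 and -0.09 and were not called (adjusted p = 0.386 and 0.755). Of 19 clock genes, Bhlhe40 (0.68 ± 0.20) and Per2 (0.52 ± 0.16), which repress the clock's activators, were higher, 10.5% of the list and near the 9.39% of all genes. The first call was lost without NP replicate 5 or P.NP replicate 2, the second in 5 of the 10 fits, and 4 clock genes were higher without NP replicate 2. Dusp1, a phosphatase induced by glucocorticoids and stress, was higher at the probe set read, at 5839 ± 775 in P.NP femurs and 3863 ± 449 in NP femurs (SD, n = 5 each) (log2 difference 0.59 ± 0.10 (SE), adjusted p = 0.000845). Its other probe set was called lower (-0.48 ± 0.15, adjusted p = 0.0676), so the direction of Dusp1 depends on the probe set. Tsc22d3, a glucocorticoid-induced leucine zipper gene, was higher by 0.41 ± 0.09 and the metallothioneins Mt2A and Mt1 by 0.37 ± 0.12 and 0.74 ± 0.25, both lost in 7 of the 10 fits. These were 4 of 16 glucocorticoid response genes, with a median of 0.21, and 2 were left without NP replicate 3, NP replicate 4, P.NP replicate 1, P.NP replicate 3 or P.NP replicate 4.

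Of 18 immediate early genes, Dusp1 was higher at the probe set read only. Ier3 (-0.64 ± 0.11, adjusted p = 0.00133) and Fosl1 (-0.80 ± 0.25, adjusted p = 0.0657, lost in 7 of the 10 fits) were lower. Of 12 chaperone genes, Hsp90b1, the chaperone of the endoplasmic reticulum, was higher (0.39 ± 0.08, adjusted p = 0.00343). Without NP replicate 2 there were 2 higher genes in each of these lists. None of 20 fatty acid oxidation and fuel switch genes was called, with a median of 0.15, and Ppargc1a, a coactivator of mitochondrial genes, and Cpt1a, the gate of fatty acids into mitochondria, had differences of 0.60 ± 0.24 and 0.38 ± 0.17 (adjusted p = 0.156 and 0.205). Without NP replicate 2, 3 of the 20 were higher. Of 19 sterol synthesis genes, Mvd was lower (-0.88 ± 0.30, adjusted p = 0.0948, lost in 8 of the 10 fits), and 2 were lower without NP replicate 2. Of 22 matrix proteases and inhibitors, Adamts4 (0.45 ± 0.11), Adamts9 (0.40 ± 0.13) and Mmp2 (0.26 ± 0.08) were higher, 13.6% beside 9.39% of all genes. In that list 1 was left without NP replicate 3, NP replicate 4 or P.NP replicate 4.

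Cell division genes were lower in 7 of 28 cases (25.0%, beside 9.39% of all genes called) and higher in none. Negative differences were found in 26, with a median of -0.16. Ccnb2, a mitotic cyclin, was lower by -0.24 ± 0.07, Ube2c, which helps to degrade cyclins, by -0.31 ± 0.09, Mcm7, a subunit of the replicative helicase, by -0.22 ± 0.07 and Kif11, a spindle motor, by -0.23 ± 0.07 (adjusted p = 0.0359, 0.043, 0.0518 and 0.0519). The count depended on single arrays: it was 15 without NP replicate 2, 1 without NP replicate 4 or P.NP replicate 2, 2 without NP replicate 3 and 3 without P.NP replicate 4. The erythroid list moved with it, since its score ran from -0.25 to -0.12 in P.NP femurs and from -0.07 to 0.11 in NP femurs, and the part of red cell precursors in the cell division result was not tested.

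Inside the shared segment, 41 genes that the study had picked as bone mass candidates on these samples were read one by one. Because they were picked from these femurs, their direction is not independent evidence. In P.NP minus NP 2 were higher and 10 lower (29.3% called, beside 9.39% of all genes), with a median of -0.07. The lower calls numbered 6 without NP replicate 4, P.NP replicate 2 or P.NP replicate 4 and 5 without NP replicate 5. Npy, neuropeptide Y, a transmitter that curbs bone formation in mice, had 6488, 6169, 7711, 6088 and 7553 in P.NP femurs, against 9111, 10282, 9548, 8558 and 8894 in NP femurs (log2 difference -0.45 ± 0.09 (SE), adjusted p = 0.00473), and the strains did not overlap. Mkrn1, a ubiquitin ligase, had 4925, 4942, 6009, 5027 and 6488 in P.NP femurs, against 6977, 8323, 7144, 8532 and 8876 in NP femurs (log2 difference -0.54 ± 0.10 (SE), adjusted p = 0.00144), with its other 3 probe sets at -0.10, -0.27 and -0.10. Tia1, an RNA-binding protein of stress granules, was lower by -0.44 ± 0.11 and Arf5, a small GTPase of vesicle traffic, by -0.25 ± 0.06 (adjusted p = 0.0219 and 0.012).

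The remaining lower candidates were Kel, Tmem209, Skap2, Ruvbl1, Gadd45a and Abtb1, and the higher ones were Ndnf (0.33 ± 0.09) and Tmem43 (0.26 ± 0.08). Tmem209, Skap2, Ruvbl1, Gadd45a, Abtb1 and Tmem43 lost their calls in 4, 3, 8, 7, 8 and 5 of the 10 fits without 1 array. Of the 29 candidates not called, Gpnmb, osteoactivin, a glycoprotein of osteoblasts and osteoclasts, had a difference of 0.18 ± 0.14, and Ghrhr, the receptor for growth hormone-releasing hormone, one of -0.03 ± 0.20 (adjusted p = 0.504 and 0.958). The closest to the threshold were Chchd6 at -0.36 ± 0.12 and Nup205 at -0.19 ± 0.07 (adjusted p = 0.104 and 0.123). Other called genes of the segment that kept the call whichever array was left out were Aqp1, the water channel of red cells (-0.31 ± 0.07), Lrig1 (-0.31 ± 0.07), Pyurf (0.32 ± 0.07), Zfp467 (0.56 ± 0.14), Fgd5 (0.41 ± 0.11) and Wdr54 (0.56 ± 0.15). Hoxa9, a homeobox gene of blood progenitors and limb patterning, was higher by 0.26 ± 0.07 and lost its call without NP replicate 3 only. Mad2l1, a spindle checkpoint protein, was lower by -0.36 ± 0.10 and Arl6ip5 higher by 0.25 ± 0.07, lost without P.NP replicate 4 and without P.NP replicate 2. A second Arl6ip5 probe set differed by -0.11 (adjusted p = 0.529). Mxd1, a MAX partner that opposes MYC, was lower by -0.23 ± 0.07, and its call was lost without NP replicate 4, NP replicate 5 or P.NP replicate 1. The others, each lost in 6 to 8 of the 10 fits, were Atoh8, Fbln2, Prickle2, Tcaf1, Tcf7l1 and Zfp862, with positive differences of 0.27 to 0.51, and St3gal5 at -0.25 ± 0.08.

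The same background difference was then read with the P segment in both strains. P minus NP.P gave 1281 higher and 1350 lower probe sets, 14.1% of those tested. Of the 1784 calls in P.NP minus NP, 857 were called there too, 840 on the same side and 17 on the other. The 840 were 47.1% of the calls in P.NP minus NP and 31.9% of those in P minus NP.P. Of the 927 not called there, 703 had the same sign. Over all tested probe sets 65.1% had the same sign in both comparisons.

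Of the 150 probe sets called in P.NP minus NP with a log2 difference of at least 1 in size, 128 were called on the same side in P minus NP.P, and 4 were called in the interaction described next. Of 162 such probe sets of P minus NP.P, 105 were called on the same side in P.NP minus NP. Lcn2 had 1009, 808, 963, 922 and 809 in P femurs, against 11708, 10155, 11494, 8989.9 and 11630.4 in NP.P femurs, a P minus NP.P difference of -3.58 ± 0.09 (SE, adjusted p = 3.58e-15). Fam111a differed there by 2.77 ± 0.09 (SE, adjusted p = 7.22e-14). RT1-Bb, whose probe sets opposed each other in P.NP minus NP, differed by -5.36 ± 0.49 at the probe set read (SE, adjusted p = 5.55e-07). Every P signal of RT1-Bb at that probe set lay under the filter level. Pdgfrl, Gfap, Atp10d, Rexo4, Gstt3 and Gclc were higher in both comparisons. Their P minus NP.P differences were 1.25, 1.59, 1.71, 1.64, 1.38 and 0.61 on the log2 scale. Erythroid genes had a median of -0.31 with 18 of 25 lower, and cell division genes one of -0.20 with 13 of 28 lower. The megakaryocyte list had a median of -0.01 in P minus NP.P with 4 of 12 lower and none higher, and the granulocyte list one of 0.14 with 4 of 14 higher and 2 lower.

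**Figure D5:**
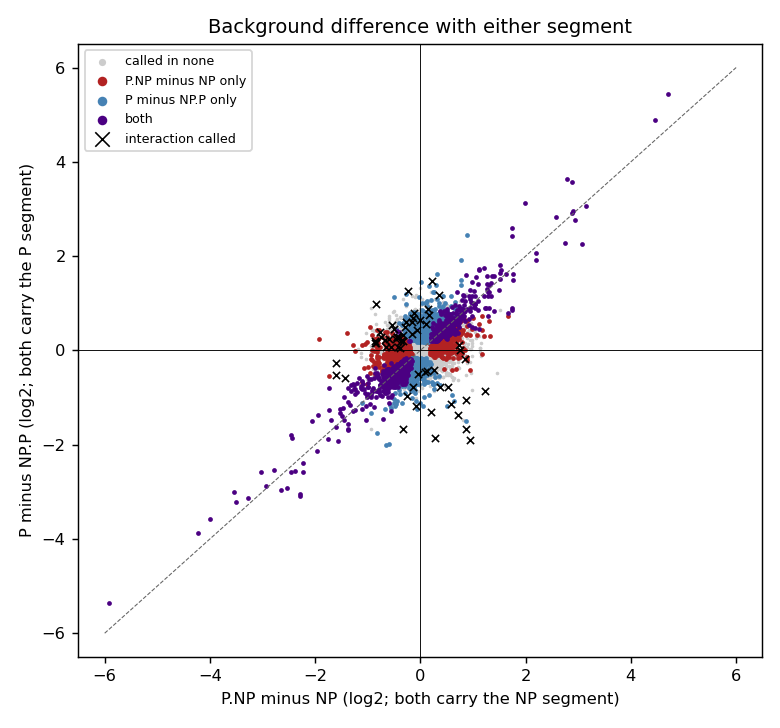
Log2 difference P.NP minus NP (x axis) against P minus NP.P (y axis) for 18625 tested probe sets, coloured by where they were called at a false discovery rate of 10%, with the 59 probe sets called in the interaction as crosses and equality as a dashed line. Of the 150 called probe sets with an x value of at least 1 in size, 128 were called on the same side on the y axis.

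The test of the difference between the 2 comparisons, the segment by background interaction, called 59 probe sets, 0.317% of those tested, of which 21 were more positive in P.NP minus NP and 38 more negative. An unadjusted p under 0.05 was found for 1808. Of the 1784 probe sets called in P.NP minus NP, 34 were among the 59. Leaving out 1 of the 20 arrays gave 21 to 109 calls, the most without NP replicate 2 and the fewest without NP.P replicate 2.

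Prg2 had 15977, 13107, 9862, 12988 and 15414 in P femurs, against 18598, 17318, 12064, 13685 and 19615 in NP.P femurs. NP femurs were above the other 3 strains, and the difference was -0.27 ± 0.17 (SE, adjusted p = 0.363) in P minus NP.P, with an interaction of -1.33 ± 0.24 (SE, adjusted p = 0.0282). Ptgfrn, a tetraspanin partner named for its inhibition of a prostaglandin receptor, had 1803, 1922, 1887, 1784 and 1586 in P.NP femurs, against 1198, 1099, 1069.9, 1029 and 1013 in NP femurs. With the P segment it had 1555, 1949.9, 1606, 1753 and 1742 in P femurs, against 1505, 1687, 1554, 1553 and 1645 in NP.P femurs. Its P minus NP.P difference was 0.11 ± 0.07 (SE, adjusted p = 0.383), and the interaction was 0.62 ± 0.10 (SE, adjusted p = 0.0167). NP femurs lay below the other 3 strains in that gene. Ppbp and Epx had interactions of -0.84 and -1.09 (adjusted p = 0.0735 and 0.0748).

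Sult1a1, a phenol sulfotransferase, had 3050.2, 2371, 3705, 3483 and 3152 in P.NP femurs, against 1678, 2572, 1507, 1334 and 1733 in NP femurs (log2 difference 0.86 ± 0.22 (SE), adjusted p = 0.0216). With the P segment the sign was opposite, at 697, 916, 1280.3, 1627 and 1613 in P femurs, against 2048, 2205, 2908, 2832 and 2259 in NP.P femurs (-1.06 ± 0.22 (SE, adjusted p = 0.00379)). The interaction was 1.92 ± 0.31 (SE, adjusted p = 0.0123). Mt2A and Chac1, a glutathione-degrading enzyme, also had opposite signs: 0.37 and 0.53 in P.NP minus NP, against -0.77 and -0.78 in P minus NP.P (interaction adjusted p = 0.00788 and 0.0162). Phactr1, an actin and phosphatase regulator, had -0.53 and 0.53 (interaction adjusted p = 0.0282).

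Cybb was lower in P.NP minus NP (-0.76) and differed by 0.27 in P minus NP.P (interaction adjusted p = 0.0266). Stfa2l2, a stefin-like cysteine protease inhibitor, Mylk3, a cardiac myosin kinase, and Clic2, a chloride channel family member, were not called in P.NP minus NP. Stfa2l2 had 2105, 2395, 2489, 1912 and 1703 in P.NP femurs, against 2584, 2569, 2916, 1981 and 2483 in NP femurs, and 4707, 3485, 3494, 3552 and 4205 in P femurs, against 1846, 1749, 1401, 1521 and 1593 in NP.P femurs. Mylk3 had 440.0, 423, 335, 403 and 372 in P.NP femurs, against 228, 274, 323, 392 and 458 in NP femurs, and 211, 245, 387, 267 and 313 in P femurs, against 770.4, 1080.4, 827, 1167 and 1267 in NP.P femurs. Clic2 had 3299, 3243, 4491, 3576 and 3702 in P.NP femurs, against 4362, 4349, 3675, 5971 and 4881 in NP femurs, and 2852, 2541, 3448, 2953 and 3320.2 in P femurs, against 6724, 10846, 8269, 11463 and 11657 in NP.P femurs. P femurs were the highest for Stfa2l2, and NP.P femurs for Mylk3 and Clic2, with no overlap with the other strains. Their differences in P.NP minus NP were -0.24, 0.27 and -0.34, against 1.26, -1.85 and -1.67 in P minus NP.P (interaction adjusted p = 0.0011, 0.00183 and 0.0137). Tia1 and Igf1 had -0.44 and -0.33 in P.NP minus NP, against 0.29 and 0.19 in P minus NP.P (interaction adjusted p = 0.0748 and 0.0945). Npy differed by -0.45 in P.NP minus NP and by -0.02 in P minus NP.P, and this interaction did not pass the threshold (-0.43 ± 0.13 (SE, adjusted p = 0.243)).

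The 7 genes outside the segment that the study tied to it, again on these femurs, gave 1 call at the probe set read. Ptgfrn was higher, and RT1-Db1, F13a1, Otub2, Dnajb2, Bnip3l and Rig1 (the study's Ddx58) differed by 0.16, -0.11, 0.01, -0.13, -0.15 and -0.30. Another probe set of RT1-Db1, a class II beta chain, was lower, with means of 166 in P.NP femurs and 792 in NP femurs (-2.43 ± 0.31, adjusted p = 3.68e-05), so its direction depends on the probe set. Another of F13a1 was lower by -0.32 ± 0.10 (adjusted p = 0.0729). Both Y-linked genes tested, Uty and Eif2s3y, were expressed in all 10 femurs, at a signal of 1376 or more. They differed by 0.11 ± 0.09 and 0.10 ± 0.17 (adjusted p = 0.513 and 0.793).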

How the data were processed

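The authors hybridised femur RNA of 20 rats, 5 per strain, to Affymetrix Rat Genome 230 2.0 arrays, 1 array per rat, read with GCOS and MAS5. The deposited table holds linear intensity values, 1 column per array, scaled to a common trimmed mean; the RMA values of the methods were not used here. Control probe sets (57) were left out, signals under 1 were set to 1 (190 values), and log2 was taken. Of 31042 probe sets, 20826 had 1 gene symbol, 436 several and 9780 none. The 18625 with a mean log2 at or above the 40th percentile (signal 169.7) were tested.

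All 4 strain means were fitted over 20 arrays in limma 3.58.1 (R 4.3.3); the residual degrees of freedom were 16, and the prior added 2.78. P.NP minus NP, P minus NP.P and their interaction were adjusted by Benjamini-Hochberg over all tested probe sets, with a threshold of 10%. Differences are P.NP minus NP with SE unless stated. A gene was read at its brightest probe set. On simulated data for P.NP minus NP with 18625 probe sets, 53 of 100 changes of 0.5 and 86 of 100 of 1 on the log2 scale were recovered, with 15 false among 154 calls. That simulation drew each probe set independently and changed a far smaller share of probe sets than was called in the data. Its recovery and false share therefore need not hold for the real arrays. Separate rats are named as replicates, and the number of arrays limits precision; detection calls were not used here.

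Named genes were the 15 higher and 15 lower with the smallest adjusted p, the 10 largest each way among called genes without overlap, up to 4 called members per list (the 2 with the smallest p where none was called, all members where 5 or fewer were counted), the called genes of the shared segment and the 10 with the smallest interaction p; study candidates were counted in full and named where called or by choice. The members and lists were chosen with earlier results of these data known. Alternatives were other filters, normalization, variance models and tests, and leaving out each array.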

Additional observations from a re-analysis of the deposited data

Results flagged for a closer look

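In 422 groups of 5 arrays (gene signals and list scores of P.NP or NP femurs), 28 had 1 array whose gap to its nearest neighbour exceeded 0.71 of the group's range. Chance flags about 1 in 20, and 12 of the 28 were on NP replicate 2. In NP femurs, replicate 2 was high for Gstt3 (0.804) and low for Hsp90b1 (0.776), Mt1 (0.744), Phex (0.805), RT1-Da (0.728), Tcf7l1 (0.815) and Uty (0.725), each value being the gap as a share of the range. Its list scores were low for B lymphoid (0.75), MHC class I (0.714) and MHC class II (0.739) genes and high for periosteum and fibroblast (0.714) and fatty acid oxidation genes (0.797).

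Other NP arrays stood apart for Prcp (replicate 1 low, 0.886), Psmb8 (replicate 4 high, 0.789), Zfp467 (replicate 5 low, 0.798) and the alcohol and aldehyde list (replicate 5 low, 0.733). In P.NP femurs, replicate 2 was high for Bhlhe40 (0.935) and low for Stfa3 (0.744) and the cartilage list (0.787). P.NP replicate 3 was high for Camp (0.716) and low for Ghrhr (0.75), Igf1 (0.802) and Slc39a7 (0.752). P.NP replicate 4 was high for the list of study genes outside the segment (0.929). P.NP replicate 1 was low for Dnajb2 (0.751) and Nherf1 (0.847), and replicate 5 for Mvd (0.751) and Ppargc1a (0.721).

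The effect of background differed between the segments by the interaction test (limma, adjusted p under the 10% threshold) for 15 named genes. P.NP minus NP exceeded P minus NP.P, on the log2 scale, by 2.12 for Mylk3, 1.92 for Sult1a1, 1.34 for Clic2, 1.32 for Chac1, 1.15 for Mt2A and 0.62 for Ptgfrn. It was below it by an interaction of -1.50 for Stfa2l2, -1.33 for Prg2, -1.09 for Epx, -1.07 for Phactr1, -1.03 for Cybb, -0.84 for Ppbp, -0.72 for Tia1, -0.59 for RT1-Db1 and -0.52 for Igf1.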

How the results depend on the processing

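Calls in P.NP minus NP numbered 1784. They were 1098 at a false discovery rate of 5%, 1084 with the 2 strains fitted alone, 1171 without a filter and 756 with the methods' unequal-variance test, and 1183 to 2103 when 1 array was left out. In the shared segment the 41 calls became 23 at 5%, 19 with 2 strains alone, 24 without a filter, 16 with the unequal-variance test, 94 over all of chromosome 4, and 22 to 46 without 1 array. Interaction calls numbered 25 at 5%, 127 with the 60th percentile filter, 115 with a mean-variance trend, 17 without a filter, 175 with the muscle score as a covariate, chosen after the data were seen, and 21 to 109 without 1 array. They left the 1.5-fold range of 59 without any array of NP, without P replicates 1, 2, 4 or 5, without NP.P replicates 1, 2 or 4, and without P.NP replicates 2, 4 or 5. P minus NP.P gave 2037 to 2596 calls without 1 array.

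The replicate numbers were not taken to pair the arrays. Deviations of same-numbered arrays from their strain means correlated above 0.1 for number 2 only (correlations -0.0794, 0.2991, -0.0687, 0.0257 and 0.0748 for numbers 1 to 5). By these deviations, 2 of 5 correlated best with their own number. The signals themselves correlated at 0.9473 to 0.9780 between arrays of different strains. With the replicate number as a block 1959 probe sets were called in P.NP minus NP, 2804 in P minus NP.P, 54 in the interaction and 43 in the segment. Of 150 named called genes, 101 kept the call whichever P.NP or NP array was left out, and 105 kept it with the 2 strains alone and 93 with the unequal-variance test. Averaging all probe sets of a gene reversed 2, Chmp1b (-0.303) and RT1-Ba (1.284). Of 740 list medians under alternatives, 21 moved by more than the spread between arrays. Low signals limit the precision of the largest folds, since MAS5 values under the filter level have no detection call here. The cause of these shifts was not tested.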
